A study of Homo sapiens with 16 samples.

Results

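The dependence of the tunicamycin response on BMAL1 was examined by RNA-seq in MDA-MB-231, a long-established human cell line from a triple-negative breast tumour, by setting the response of BMAL1 knockout (KO, BMAL1 -/-) cells against that of wild-type (WT) cells. The data come from 4 groups of 2 biological replicates, which were KO cells under tunicamycin, KO cells in control, WT cells under tunicamycin and WT cells in control. These are 8 of the 16 samples of the series, and the others were given cisplatin or doxorubicin. The dose and time of tunicamycin, the edited part of the gene and whether the KO cells are 1 clone could not be learned from the labels. The response of a genotype is the log2 ratio of FPKM plus 1 (fragments counted on a gene, divided by its length and by the fragments counted in all) under tunicamycin over control. The difference is the KO response minus the WT response, which equals the KO over WT log2 ratio under tunicamycin minus that in control. Genes with 5 FPKM or more in 1 group under tunicamycin and in 1 group in control were taken, which gave 8771 of the 60658 genes in the tables. The authors pooled the replicates into 1 FPKM value per group, so the difference has no replicate error and no test, and it is given as a value throughout.

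Tunicamycin blocks DPAGT1, the enzyme that starts the sugar chain used in N-linked glycosylation, so that proteins misfold in the endoplasmic reticulum (ER). The cell answers with the unfolded protein response, in which the sensors PERK, IRE1 and ATF6 signal through the transcription factors ATF4, spliced XBP1 and cleaved ATF6 and raise chaperones, degradation of misfolded protein and amino acid supply. BMAL1 (gene symbol ARNTL) pairs with CLOCK or NPAS2 on E-box sequences and drives the circadian clock. In the series, tunicamycin serves as the treatment in which BMAL1 loss was foreseen to matter little.

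For most genes the KO and WT responses lay close together, and few genes had a large response in either genotype. The median response was -0.07 in KO and -0.10 in WT cells. The difference had a median of 0.03 and quartiles of -0.22 and 0.27, and 7242 member genes (82.6%) lay within 0.5 of 0. A difference of 1 or more was found for 76 genes (0.866% of the member genes) and one of -1 or less for 106 genes (1.21%). Just inside and just outside these limits the values were 1.008 and 0.9994 on the high side and -1.006 and -0.9949 on the low side. An error can be derived from the authors' deposited tables, as the log2 ratio over the test statistic in each table, added in squares. It belongs to the difference of the deposited log2 ratios, in which no 1 FPKM is added. Taken as a normal quantile, the authors' p-value was a median of 1.48 times the statistic in control and 1.49 times under tunicamycin. The implied error is thus not the one behind their q-values. By this implied error 57 of 74 genes at 1 or more and 69 of 87 at -1 or less lay at least 2 errors from 0. Among 8741 member genes with such an error the shares were 14.7% above and 11% below. Genes with a large difference were picked by its size, so their larger share follows from that choice and is no separate support. The implied error comes from the authors' model and was not computed from replicate values. Across member genes, which are not independent replicates, the responses of KO and WT cells had a Pearson's r of 0.591 and a Spearman correlation of 0.553. A response of 1 or more was found for 227 genes in KO and 254 in WT cells, of which 135 were shared, 59.5% of the KO list and 53.1% of the WT list. A response of -1 or less was found for 128 genes in KO and 146 in WT cells, of which 33 were shared, 25.8% of the KO list and 22.6% of the WT list.

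WT control alone set many of the large differences. In 1513 member genes the WT control value stood apart from the other 3 groups by a log2 gap wider than their range, against 815 for KO control, 878 for WT tunicamycin and 715 for KO tunicamycin. Of the 106 genes with a difference of -1 or less, 78 were of this kind, with WT control below the rest, and 19 of the 106 were listed at 0 in WT control. Of the 76 genes with a difference of 1 or more, 25 were of this kind, with WT control above the rest. The sign of the difference follows from the side on which WT control stands apart, so it is no separate finding. Without these genes, 51 were left at 1 or more and 28 at -1 or less, and Pearson's r of the responses was 0.703 over 7258 genes. Dropping genes by the gap of WT control lowers the counts and tends to raise r by construction, so neither is a separate finding. WT control had the fewest genes above 0, with 21658 in KO tunicamycin, 20950 in KO control, 22132 in WT tunicamycin and 19007 in WT control. Reads per library are not given in the files, and the part of depth in these gaps was not tested. In bulk samples, fewer cells that express a gene and less RNA per cell cannot be told apart.

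**Figure D1:**
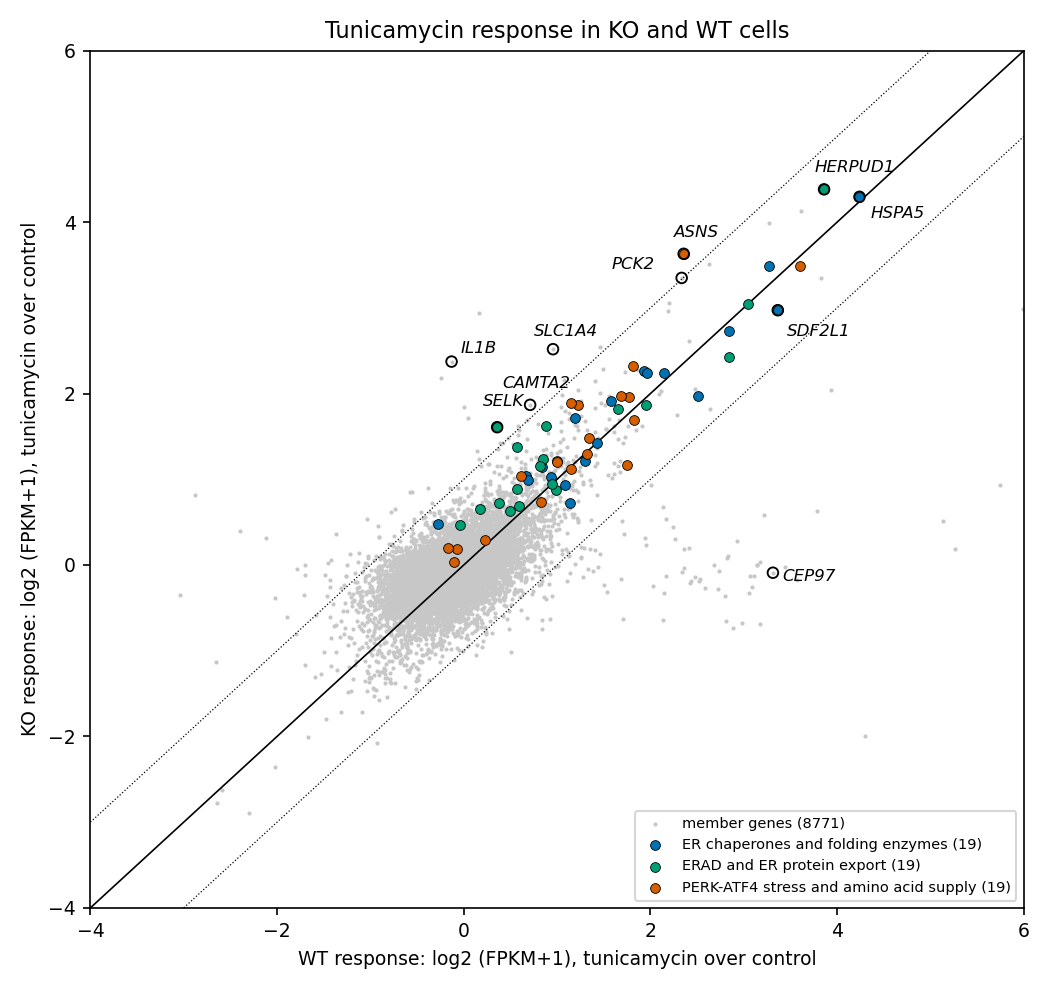
Log2 response to tunicamycin (FPKM plus 1) in KO cells (vertical) against WT cells (horizontal) for 8771 member genes, with 3 gene lists coloured. The solid line marks equal responses and the dotted lines a difference of 1 and -1, and 5 genes lie outside the plotted range. HSPA5 lies on the solid line and HERPUD1 between it and the upper dotted line, both at responses of about 4, ASNS and IL1B lie above the upper dotted line, and CEP97 lies far below the lower one. Genes on the right at KO responses near 0 had a response in WT cells only, and their WT control levels were not counted.

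Promoters are shown for HSPA5, the ER chaperone with the highest level under tunicamycin, for the ER degradation gene HERPUD1, for the stress gene ASNS and for CAMTA2, because the differences of the first pair lay below 1 and those of the second pair above it. The sequences lie before the gene's start in RefSeq (GRCh38.p14) and are written 5′ to 3′ on the strand of the gene, with motif matches in capitals. For HSPA5 (chr9:125241344-125241593, minus strand) the capitals mark the ER stress element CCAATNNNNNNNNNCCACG. For HERPUD1 (chr16:56931892-56932047, plus strand) they mark, in order, a reverse match of the CARE motif TGATGNAA, a site of the kind ATF4 binds, and the E-box CACGTG, which BMAL1 is known to bind. For ASNS (chr7:97872458-97872487, minus strand) 30 bases around a CARE motif are given, and for CAMTA2 (chr17:4987736-4987765, minus strand) 30 bases around an E-box, since both motifs lie in an exon of some other transcript.
HSPA5: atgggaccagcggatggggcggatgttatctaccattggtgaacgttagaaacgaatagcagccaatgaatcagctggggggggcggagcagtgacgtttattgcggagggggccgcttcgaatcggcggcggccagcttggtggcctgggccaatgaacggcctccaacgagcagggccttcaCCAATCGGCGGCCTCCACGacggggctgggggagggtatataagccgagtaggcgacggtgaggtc
HERPUD1: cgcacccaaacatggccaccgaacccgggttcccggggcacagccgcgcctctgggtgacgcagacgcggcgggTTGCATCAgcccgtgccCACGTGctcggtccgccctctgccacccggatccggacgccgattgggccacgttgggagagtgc
ASNS: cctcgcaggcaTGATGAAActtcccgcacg
CAMTA2: cacccagaactcCACGTGtgctgaccccag
Both strands were searched in windows of 250 bases before to 50 after the start. The ER stress element was in 5 of 17 ER chaperone promoters (29.4%), against 10 of 7104 promoters of member genes (0.141%) and 0.0806% of all 27305 promoters in the table. The CARE motif was in 5 of 15 promoters of the PERK-ATF4 list (33.3%), against 1.58% of member genes and 3.67% of all promoters. The lists were made of known stress genes and these are known stress motifs, so their larger shares are no separate finding. The E-box was in 10.97% of member gene promoters and 7.43% of all promoters. It was in 1 of 31 promoters of genes with a difference of 1 or more and in 2 of 13 promoters of those with -1 or less, where genes with WT control alone apart are left out. The E-box match in the first of these sets is that of CAMTA2. In the same sets the CARE motif was in 3 of 31 and 0 of 13 promoters, and the ER stress element was in none. Promoters of ATF4, DNAJB9, HSP90B1 and VIMP, described further on, also hold an E-box. Of the ER stress element only the form given above was searched. These are matches of letters and not measured binding.

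The targeted gene, ARNTL (chromosome 11, 13276652 to 13387266, GENCODE 29 on GRCh38), was under the level limit in the tunicamycin table and is no member. It had 2.24 FPKM under tunicamycin and 0.889 FPKM in control in KO cells, against 3.25 and 5.67 FPKM in WT cells. In the authors' deposited table it was called lower in KO cells in control (q = 0.000213) and not under tunicamycin (q = 0.081), where a call is a q of at most 0.05. A group FPKM covers all exons, so a small edit would not remove the reads. The 8 markers of MDA-MB-231 cells were all at 1 FPKM or more in the 4 groups, with sums of 5886 to 6437 FPKM. The extraction protocol in the labels speaks of fibroblasts, and fibroblast markers summed to 9.97 FPKM in KO tunicamycin, 12.6 in KO control, 3.33 in WT tunicamycin and 4.07 in WT control. COL3A1, DCN and PDGFRA were at 0 in all 4 groups. In the authors' deposited tables COL1A1 was higher in KO cells (log2 1.43 under tunicamycin and 1.31 in control). PDGFRB was also higher (log2 2.26 and 2.01), and COL1A1 and PDGFRB were each called under tunicamycin and in control. COL1A2 had a lower value in KO cells in control (log2 -2.71) but was not called there. Luminal breast markers summed to 120.5 FPKM in KO tunicamycin, 180.3 in KO control, 287 in WT tunicamycin and 329 in WT control, and their part in the results was not tested.

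ER chaperones and folding enzymes had the highest median response of the lists in both genotypes, and the list's median differed little between them. The 19 members of the list of 20 had a median response of 1.72 in KO cells and 1.43 in WT cells. The median difference was 0.10, beside 0.03 for all member genes, and no member reached 1 in size. HSPA5 (BiP, the main ER Hsp70 chaperone, chromosome 9, 125234853 to 125241330) had 7050.1 FPKM under tunicamycin and 358 FPKM in control in KO cells, against 5887 and 311 FPKM in WT cells. Its response was 4.30 in KO and 4.24 in WT cells, and its difference was 0.06. HYOU1, a large chaperone that recharges BiP, had 1102 and 165 FPKM in KO cells under tunicamycin and in control, against 735 and 102 FPKM in WT cells. KO cells held more HYOU1 in both tables, so the difference was only -0.11.

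The extremes of the chaperone list were modest. SIL1, a nucleotide exchange factor of BiP, was the highest at a difference of 0.76, with 97.4 and 69.6 FPKM in KO cells, against 71.8 and 87.2 FPKM in WT cells. It was higher under tunicamycin than in control in KO cells and lower in WT cells. PDIA4, a disulfide isomerase, was the lowest at -0.54, with 541 and 137 FPKM in KO cells, against 405 and 70.2 FPKM in WT cells. SDF2L1, part of the BiP chaperone complex, had responses of 2.97 in KO and 3.36 in WT cells. HSP90B1 (GRP94) had 1.15 in KO and 0.84 in WT cells, and DNAJB9 (ERdj4), a co-chaperone of BiP, had 3.49 in KO and 3.27 in WT cells. In these last 3 genes the difference was smaller than either response. In the authors' deposited tables, 17 of the 19 were called higher under tunicamycin in KO cells and 1 lower, where 36.7% of tested member genes were called higher and 24.9% lower. In control, 13 were called higher and 3 lower, where 28% of tested member genes were called higher and 24.6% lower. Over all genes tested by the authors, these shares were 27.2% and 22.1% under tunicamycin and 22.7% and 21.1% in control.

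The next list joins ER-associated degradation (ERAD), which pulls misfolded protein out of the ER, with protein translocation and export genes such as SEC61B and SEC24D, and it leaned toward a larger response in KO cells. Of its 19 members, 15 had a difference above 0, beside 52.9% of all member genes, and the median was 0.31, with median responses of 1.22 in KO and 0.85 in WT cells. The median GC content of the list's transcripts was 45.2%, beside 48.6% for all member genes, and after centring on genes of like GC content its median difference was 0.13. SELK (selenoprotein K, an ER membrane protein of ERAD, chromosome 3, 53884410 to 53891988) was the highest. It had 90.0 FPKM under tunicamycin and 28.9 FPKM in control in KO cells, against 79.8 and 62.1 FPKM in WT cells. KO control was the low value that stood apart, and the difference was 1.25. In the authors' deposited tables SELK was called higher in KO cells under tunicamycin (q = 0.00179) and lower in control (q = 0.000213).

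Among the other ERAD genes only SYVN1 was below 0, and the remaining members below 0 were the translocation and export genes SEC61A1, SEC24D and SEC23B. HERPUD1, a scaffold of the ERAD ligase, had 579.6 and 26.8 FPKM in KO cells, against 385 and 25.6 FPKM in WT cells, a difference of 0.52. Its control levels were close and its tunicamycin levels were not, and it was called higher in KO cells only under tunicamycin in the authors' deposited tables (q = 0.000173, and 0.709 in control). DERL2, a derlin of the export channel, had a difference of 0.80, and VIMP (selenoprotein S) had 0.74. SEL1L, partner of the ligase SYVN1, had responses of 3.05 in KO and 3.04 in WT cells. SYVN1 itself was the lowest at -0.41, with 77.4 and 13.6 FPKM in KO cells, against 84.7 and 10.99 FPKM in WT cells.

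**Figure D2:**
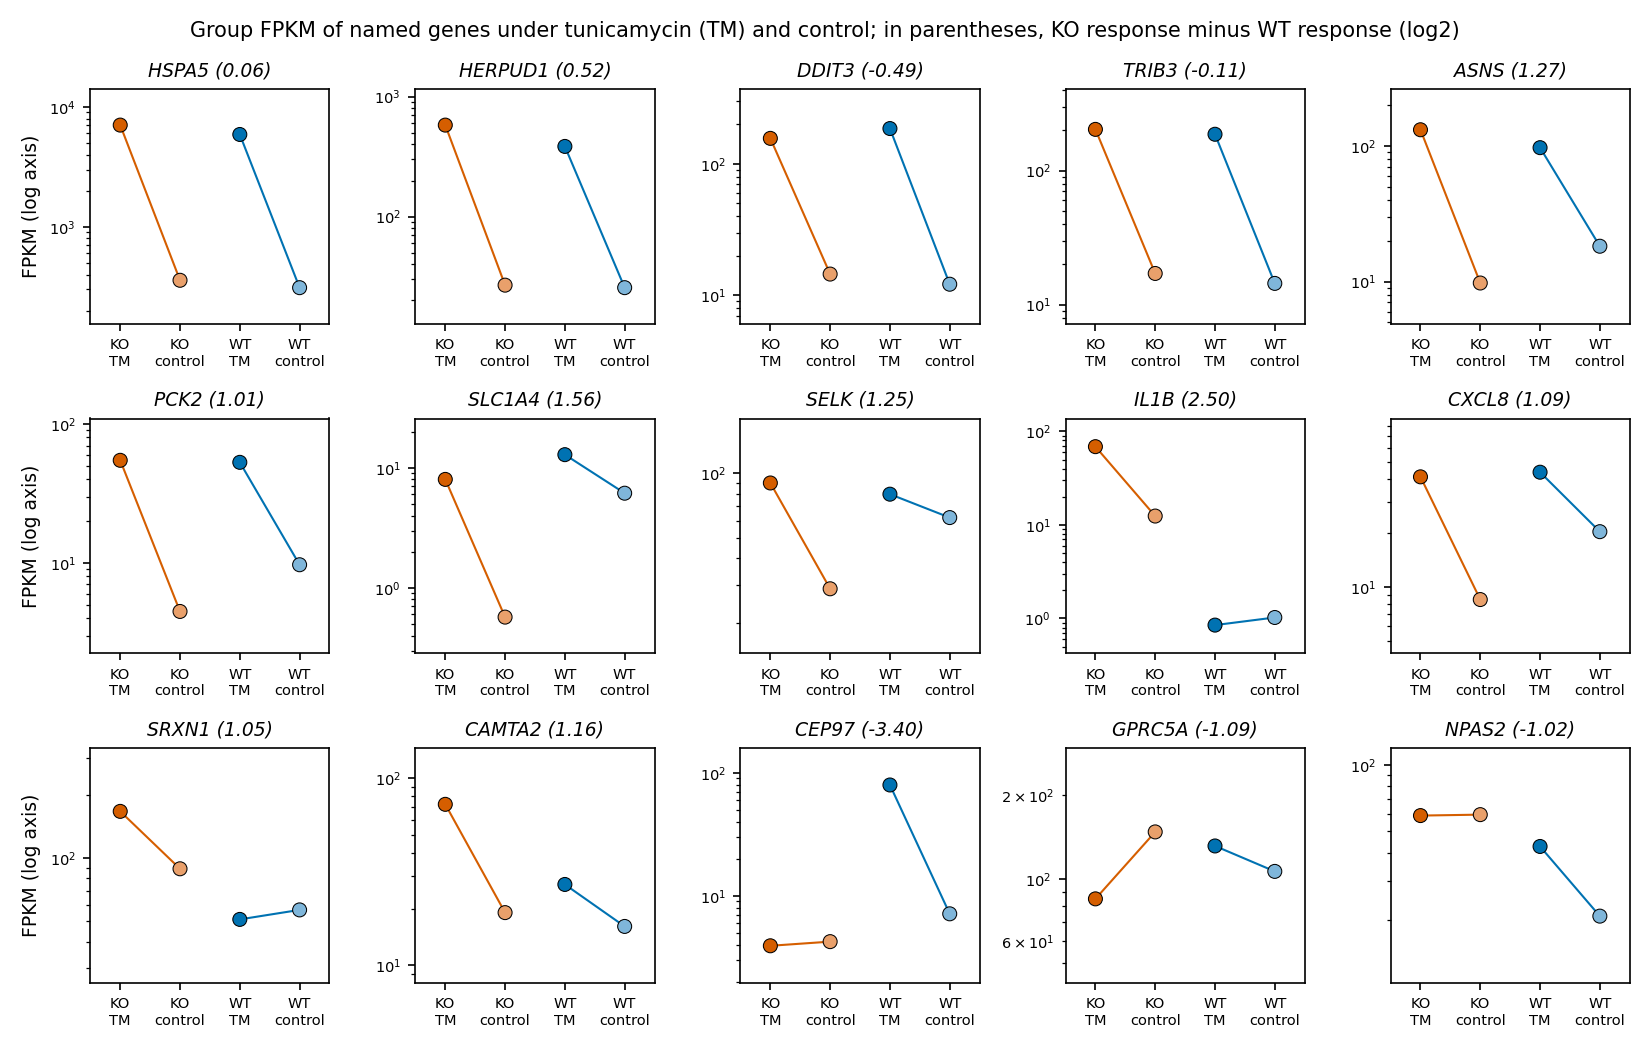
Group FPKM (log axis, 1 pooled value per group, no error) of 15 named genes in KO cells under tunicamycin and in control, left, and in WT cells, right, with the difference in parentheses. HSPA5 and TRIB3 show near-parallel lines. ASNS, PCK2, SLC1A4 and SELK start lower in KO control, IL1B is above 10 FPKM in KO cells and near 1 in WT cells, and CEP97 is high in WT tunicamycin alone.

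Sensors and transcription factors of the ER stress response had a median difference of 0.09 over 12 members. ATF6 had 20.5 and 11.01 FPKM in KO cells, against 19.9 and 11.7 FPKM in WT cells, and a difference of 0.13. XBP1 had 138 and 70.0 FPKM in KO cells, against 115 and 60.6 FPKM in WT cells, and a difference of 0.06. Gene-level FPKM does not separate spliced from unspliced XBP1. ERN1 (IRE1) at 4.09 and 2.07 FPKM in KO cells, against 3.39 and 2.504 in WT cells, was under the level limit. So was EIF2AK3 (PERK), at 10.8 and 3.61 FPKM in KO cells, against 11.9 and 2.998 FPKM in WT cells. WFS1, an ER membrane protein that restrains ATF6, was the lowest member at -0.87, and it was one of the genes with WT control alone apart. It had 75.7 and 66.8 FPKM in KO cells, against 43.8 and 20.6 FPKM in WT cells. EIF2S1, the subunit that PERK phosphorylates, was the highest at 0.77.

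The PERK-ATF4 branch held the stress gene with the largest difference, ASNS (asparagine synthetase, chromosome 7, 97852118 to 97872542). ASNS had 132 FPKM under tunicamycin and 9.75 FPKM in control in KO cells, against 97.4 and 18.2 FPKM in WT cells. KO cells were below WT cells in control and above them under tunicamycin, and the response was 3.63 in KO and 2.36 in WT cells, a difference of 1.27. In the authors' deposited tables ASNS was called higher in KO cells under tunicamycin (log2 0.44, q = 0.000173) and lower in control (log2 -0.90, q = 0.000213). These q-values are the smallest in their tables and are shared by 4016 and 3044 genes. After centring on genes of like GC content the difference of ASNS was 1.17. The implied error of the difference of deposited ratios was 0.23 for ASNS, beside 0.20 for SELK, 0.21 for HERPUD1 and 0.02 for HSPA5.

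The branch as a whole did not follow ASNS. Its 19 members had a median difference of 0.19, with median responses of 1.30 in KO and 1.23 in WT cells, and 13 were above 0. ATF4 itself had 552 and 185 FPKM in KO cells, against 473 and 202 FPKM in WT cells, a difference of 0.35. TRIB3, a pseudokinase induced by ATF4 and CHOP, had 203 and 17.1 FPKM in KO cells, against 187 and 14.4 FPKM in WT cells, a difference of -0.11. DDIT3 (CHOP), which links ER stress to cell death, had 157 and 14.5 FPKM in KO cells, against 186 and 12.1 FPKM in WT cells, a difference of -0.49. The lowest member was CEBPB, a transcription factor of the stress response, at -0.58. CHAC1, which degrades glutathione, was under the level limit in control, with 45.3 and 2.03 FPKM in KO cells, against 39.8 and 2.38 FPKM in WT cells.

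A pair of metabolic genes outside the list, picked after their values were seen, also had their lowest value in KO control. PCK2, the mitochondrial PEP carboxykinase (chromosome 14, 24094053 to 24110598), had 54.8 and 4.47 FPKM in KO cells, against 53.0 and 9.70 FPKM in WT cells. SLC1A4, a carrier of neutral amino acids (chromosome 2, 64988477 to 65023865), had 7.995 and 0.571 FPKM in KO cells, against 12.8 and 6.13 FPKM in WT cells. The differences were 1.01 for PCK2 and 1.56 for SLC1A4, and under tunicamycin KO cells were about level with WT cells in PCK2 and below them in SLC1A4. PSAT1 and MTHFD2, enzymes of serine and one-carbon metabolism in the list, had differences of 0.64 and 0.75.

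The tunicamycin target and its pathway showed no common shift. DPAGT1 had 58.0 and 40.3 FPKM in KO cells, against 45.8 and 28.9 FPKM in WT cells, a difference of -0.14. MFSD2A, a carrier known to take up tunicamycin, had 12.8 and 7.83 FPKM in KO cells, against 12.7 and 6.65 FPKM in WT cells, a difference of -0.20. The 25 members of the N-glycosylation list had a median of -0.01, and none had a response of 1 or more in either genotype. Its highest member, ALG14, part of the enzyme that adds the second sugar, was at 1.74 with WT control alone apart, at 5.97 and 6.23 FPKM in KO cells, against 3.48 and 14.5 FPKM in WT cells. The hexosamine pathway, which makes the sugar donor, had a median of 0.34 over 11 members and 0.11 after centring on GC content. Its range ran from UAP1L1 at -0.61 to UAP1, the last enzyme of the pathway, at 0.69. The ER stress cell death list had a median of 0.09 over 14 members, with DDIT3 the lowest.

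**Figure D3:**
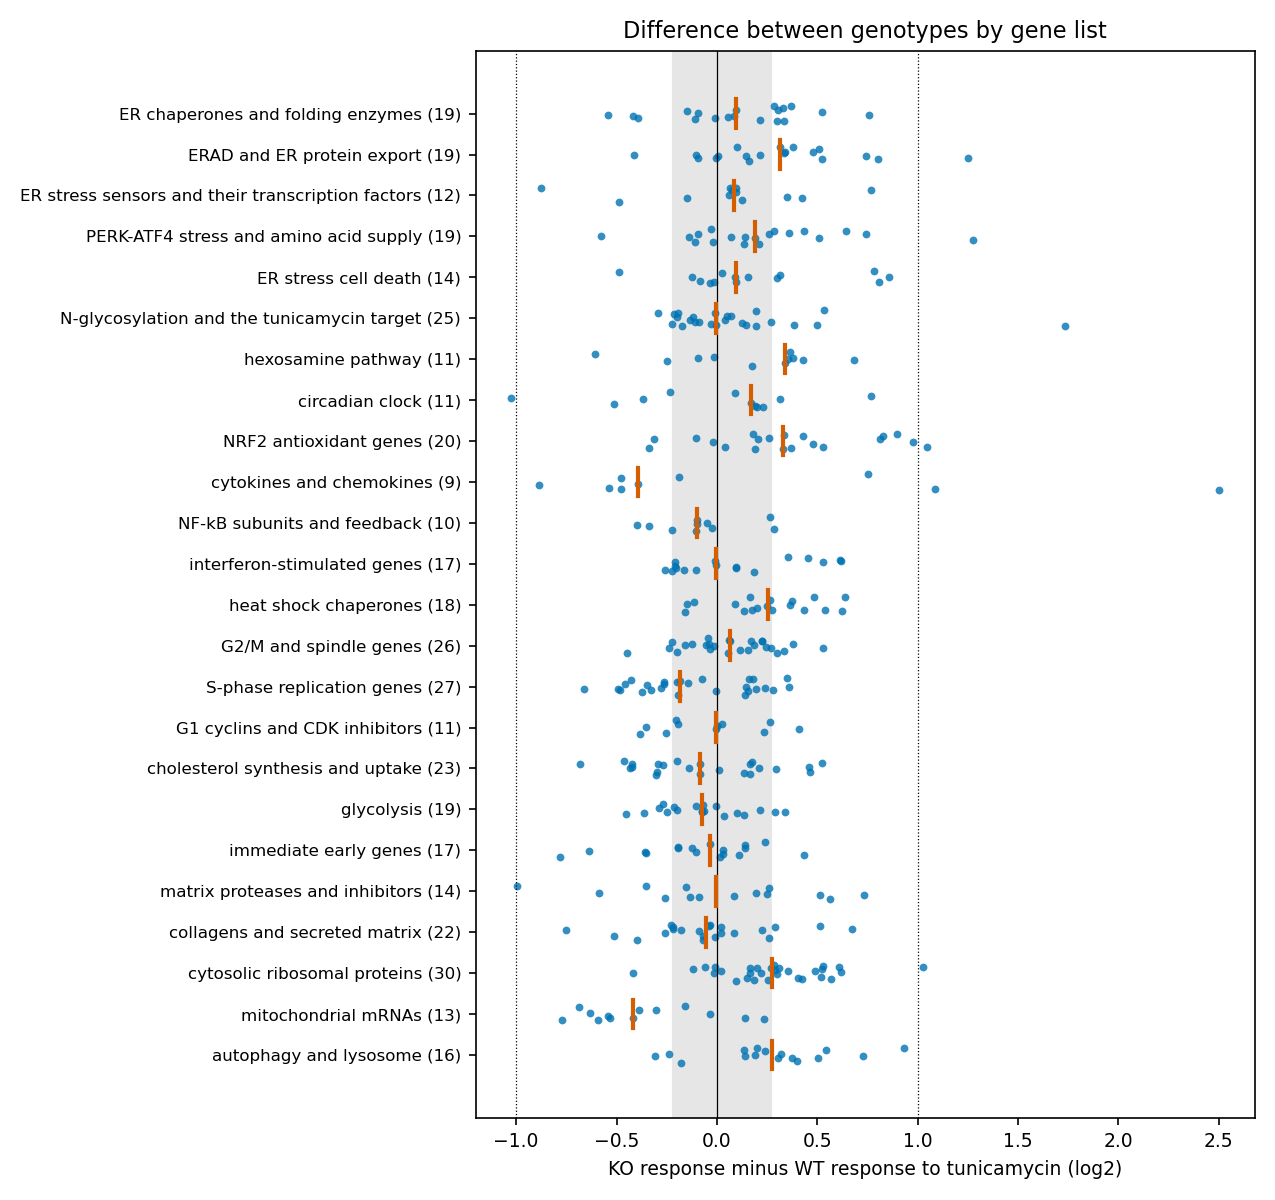
Difference between the KO and WT responses (log2, horizontal) for the members of 24 gene lists, 1 dot per gene, with the list median as an orange bar and the range between the quartiles of all member genes shaded. Dotted lines mark 1 and -1. List medians run from -0.42 (mitochondrial mRNAs) to 0.34 (hexosamine pathway), and dots past a dotted line are single genes such as IL1B at 2.504, ALG14 at 1.74 and ASNS at 1.27.

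The largest positive difference among the member genes of all lists was that of IL1B, while the 9 of 23 listed cytokines that passed the level limit had a negative median. IL1B, the secreted cytokine interleukin 1 beta (chromosome 2, 112829751 to 112836903), had 68.6 FPKM under tunicamycin and 12.4 FPKM in control in KO cells, against 0.849 and 1.02 FPKM in WT cells. KO cells were above WT cells in both tables, and the response was 2.37 in KO and -0.13 in WT cells, a difference of 2.504. The implied error was 1.06 and belongs to deposited log2 ratios of 6.34 under tunicamycin and 3.60 in control. IL1A, its neighbour on chromosome 2, was under the level limit in control and is no member, with 12.5 and 0.573 FPKM in KO cells, against 0.335 and 0.116 FPKM in WT cells and a difference of 2.84. In the authors' deposited tables IL1A was called higher in KO cells under tunicamycin (q = 0.000173) and was not tested in control. Leukocyte markers summed to 173 FPKM in KO tunicamycin, 172 in KO control, 148 in WT tunicamycin and 65.0 in WT control, nearly all of it CD68, with CD3E at 0 in all 4 groups.

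CXCL8, a neutrophil-recruiting chemokine, differed through KO control, with 41.3 and 8.48 FPKM in KO cells, against 43.9 and 20.4 FPKM in WT cells. The tunicamycin levels were close, and the difference was 1.09. After centring on genes of like GC content it was 0.79. IL6 was at 15.7 and 5.05 FPKM in KO cells, against 17.4 and 4.85 FPKM in WT cells, a difference of -0.19. LIF, a cytokine of the IL6 family, was the lowest member at -0.88 with WT control alone apart. Of these 9 members 3 were above 0, and their median was -0.39, which does not cover the listed cytokines under the level limit, IL1A among them. Genes for NF-kB subunits and feedback had a median of -0.10 over 10 members, and of 0.02 after centring on GC content.

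Antioxidant genes driven by NRF2 were higher in KO cells in both tables and leaned further that way under tunicamycin. Of 20 members, 19 were called higher in the authors' deposited tables in KO cells under tunicamycin and none lower, where 36.7% of member genes were called higher. In control 16 were called higher and 1 lower, where 28% were called higher. The median difference was 0.33 with 16 of 20 above 0, and 0.24 after centring on GC content. SRXN1 (sulfiredoxin, chromosome 20, 646615 to 653370) was the highest at 1.05, with 167 and 88.9 FPKM in KO cells, against 51.1 and 56.7 FPKM in WT cells. KO tunicamycin was the value that stood apart. GCLC, the catalytic subunit that starts glutathione synthesis, was next at 0.98, with 23.2 and 7.13 FPKM in KO cells, against 9.35 and 5.86 FPKM in WT cells.

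Clock genes had a median difference of 0.17 over 11 members, which was 0.0067 after centring on GC content and 0.05 with groups scaled to the same summed FPKM. NR1D2 (REV-ERB beta) was the highest at 0.77, with 3.84 and 1.91 FPKM in KO cells, against 19.7 and 20.1 FPKM in WT cells. KO cells were far below WT cells in both tables, and the value of a gene this low depends on the added 1 FPKM. NPAS2, the CLOCK paralog that can pair with BMAL1, was the lowest at -1.02, with 59.0 and 59.5 FPKM in KO cells, against 42.8 and 20.7 FPKM in WT cells. WT control alone stood apart in NPAS2, while KO cells had near-equal values. NR1D1, a repressor of the clock, had a difference of 0.17 with all 4 groups between 5.05 and 5.58 FPKM. PER2, TEF, DBP and CIART were under the level limit in at least 1 table. DBP, an output factor of the clock, had 1.64 and 4.58 FPKM in KO cells, against 1.21 and 3.72 FPKM in WT cells, and responses of -1.08 in KO and -1.10 in WT cells. PER2, a core repressor, had responses of 0.59 in KO and 0.27 in WT cells, and TEF, an output factor like DBP, had 0.36 in KO and 0.20 in WT cells. CIART, a repressor, was under 0.5 FPKM in all 4 groups.

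Lists outside the stress pathways had median differences between -0.42 and 0.28. Mitochondrial mRNAs had a median difference of -0.42 over 13 members, with responses of 0.04 in KO and 0.49 in WT cells. Their share of the summed FPKM was 3.60% in KO tunicamycin, 3.62% in KO control, 6.37% in WT tunicamycin and 4.95% in WT control. Cytosolic ribosomal protein genes had a median of 0.28 over 30 members, with RPS23 highest at 1.03. After GC centring the median was 0.29 and RPS23 was at 0.89. Heat shock chaperones, which act in the cytosol and mitochondria, had a median of 0.26 over 18 members, with responses of -0.20 in KO and -0.46 in WT cells. Its median was 0.16 after centring on GC content and 0.12 with summed-FPKM scaling. Autophagy and lysosome genes had 0.27 over 16 members, where MAP1LC3B (LC3B) was highest at 0.93, and medians of 0.16 after GC centring and 0.14 with summed-FPKM scaling. The list for S-phase replication had a median of -0.18 over 27 members, 10 of them above 0. Its median was -0.15 after GC centring and -0.30 with summed-FPKM scaling, where all member genes were at -0.11. The lists for G2/M (0.06, 26 members), cholesterol synthesis (-0.09, 23 members), glycolysis (-0.07, 19 members), collagens and secreted matrix (-0.05, 22 members) and immediate early genes (-0.04, 17 members) lay near 0.

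The GC content of the transcript went along with the difference. Over 8758 member genes with a GENCODE 29 transcript, the Spearman correlation of the difference with GC content of the longest transcript was -0.461, as a description across genes that share their libraries. The median difference was 0.26 in the fifth of genes with the lowest GC content and -0.20 in the fifth with the highest. From low to high GC, the median KO response ran from -0.02 to -0.16 and the median WT response from -0.26 to 0.02. The Spearman correlation with GC content was -0.07 for the KO over WT ratio under tunicamycin and 0.27 for that in control. With transcript length, the Spearman correlation of the difference was -0.193. After each difference was centred on the median of genes of like GC content, 53 genes were at 1 or more and 102 at -1 or less. The part of GC content in single differences was not tested.

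**Figure D4:**
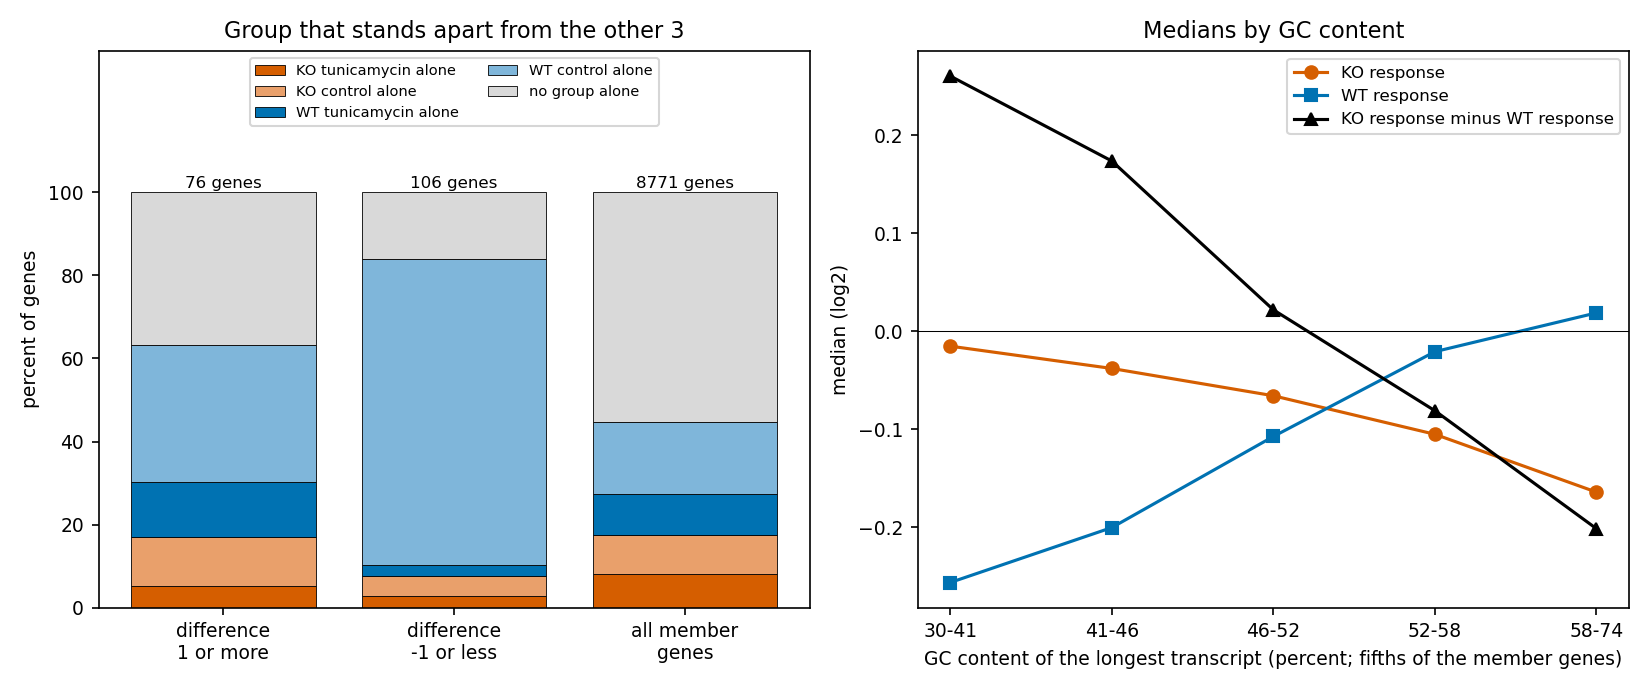
Left, percent of genes in which 1 group stands apart from the other 3, for genes with a difference of 1 or more (76), of -1 or less (106) and for all 8771 member genes. Right, median KO response, WT response and difference (log2) in 5 equal parts of the member genes by GC content of the longest transcript (1751 or 1752 genes each). WT control makes up 78 of the 106 genes in the middle bar, and the KO and WT lines slope in opposite directions.

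Gene types were compared first, and then genes set apart by WT control were described. Of all 106 genes with a difference of -1 or less, 51 (48.1%) were protein coding and 38 (35.8%) were pseudogenes, beside 96.1% and 1.65% of all member genes. Of the 1513 genes with WT control alone apart, at any difference, 1410 (93.2%) were protein coding and 64 (4.23%) were pseudogenes. Among the 78 of them at -1 or less, the 3 lowest were RNU6-33P, RNU6-42P and AC005943.2. All 3 were listed at 0 in WT control, so no difference is given for them. Many others have near-identical copies among which reads can be split, and their values are uncertain. TUBA1A, an alpha tubulin picked with TUBB2B after the values were seen, had 427 and 513 FPKM in KO cells, against 388 and 64.1 FPKM in WT cells. The beta tubulin TUBB2B had 24.5 and 29.5 FPKM in KO cells, against 25.4 and 2.11 FPKM in WT cells. On the high side, RAB28, a small GTPase, had 8.75 and 6.87 FPKM in KO cells, against 7.78 and 37.1 FPKM in WT cells, and the same held for EFCAB11, at 18.3 and 13.98 FPKM in KO cells, against 13.03 and 35.2 FPKM in WT cells.

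Among the other genes the lowest protein-coding difference was that of CEP97, a centrosome protein that restrains cilia (chromosome 3, 101723925 to 101770562). It had 3.91 and 4.23 FPKM in KO cells, against 79.7 and 7.12 FPKM in WT cells, a difference of -3.40. The implied error was 0.56 and belongs to deposited log2 ratios of -4.35 under tunicamycin and -0.75 in control. WT tunicamycin was the only high group, and in the authors' deposited tables CEP97 was called lower in KO cells under tunicamycin (q = 0.000173) and in control (q = 0.0133). MPP6, a membrane scaffold protein, also stood apart in WT tunicamycin, at 7.66 and 9.21 FPKM in KO cells, against 43.0 and 14.5 FPKM in WT cells. The implied error of MPP6 was 2.08, larger than its difference of -1.74. CDK17, a cyclin-dependent kinase, had a difference of 1.67 through a low KO control, at 21.2 and 5.78 FPKM in KO cells, against 20.7 and 20.1 FPKM in WT cells. The noncoding members at the extremes, several of them listed at 0 in 1 or 2 groups, include TTC28-AS1_2, RP11-323N12.5, SNORD3B-1 and AC135050.1, for which no difference is given.

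The cisplatin and doxorubicin tables served to place each large difference, and this use was chosen after the data were seen. Of the 76 genes at 1 or more, 10 had a KO over WT ratio under tunicamycin at least 1 above those in control, cisplatin and doxorubicin, and 25 had a control ratio at least 1 below the other 3. Of the 106 genes at -1 or less, 5 had a tunicamycin ratio at least 1 below the other 3, and 69 had a control ratio at least 1 above them. Neither condition was met by 44 of the 76 genes (57.9%) and 35 of the 106 (33.0%), and some genes met both. The gap between tunicamycin and control was met beforehand, as the genes were picked by it. The shares over all member genes were not computed. IL1B had KO over WT log2 ratios of 5.23 in tunicamycin, 2.73 in control, 3.57 in cisplatin and 2.40 in doxorubicin. CAMTA2, a calmodulin-binding transcription activator picked after its values were seen, had 1.39 in tunicamycin, 0.23 in control, 0.00 in cisplatin and -0.61 in doxorubicin. Its levels were 72.6 and 19.2 FPKM in KO cells under tunicamycin and in control, against 27.1 and 16.2 FPKM in WT cells. SRXN1 and SLC1A4 belonged to the 10, while ASNS, at 0.44 in tunicamycin, -0.84 in control, -0.42 in cisplatin and -0.58 in doxorubicin, did not.

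**Figure D5:**
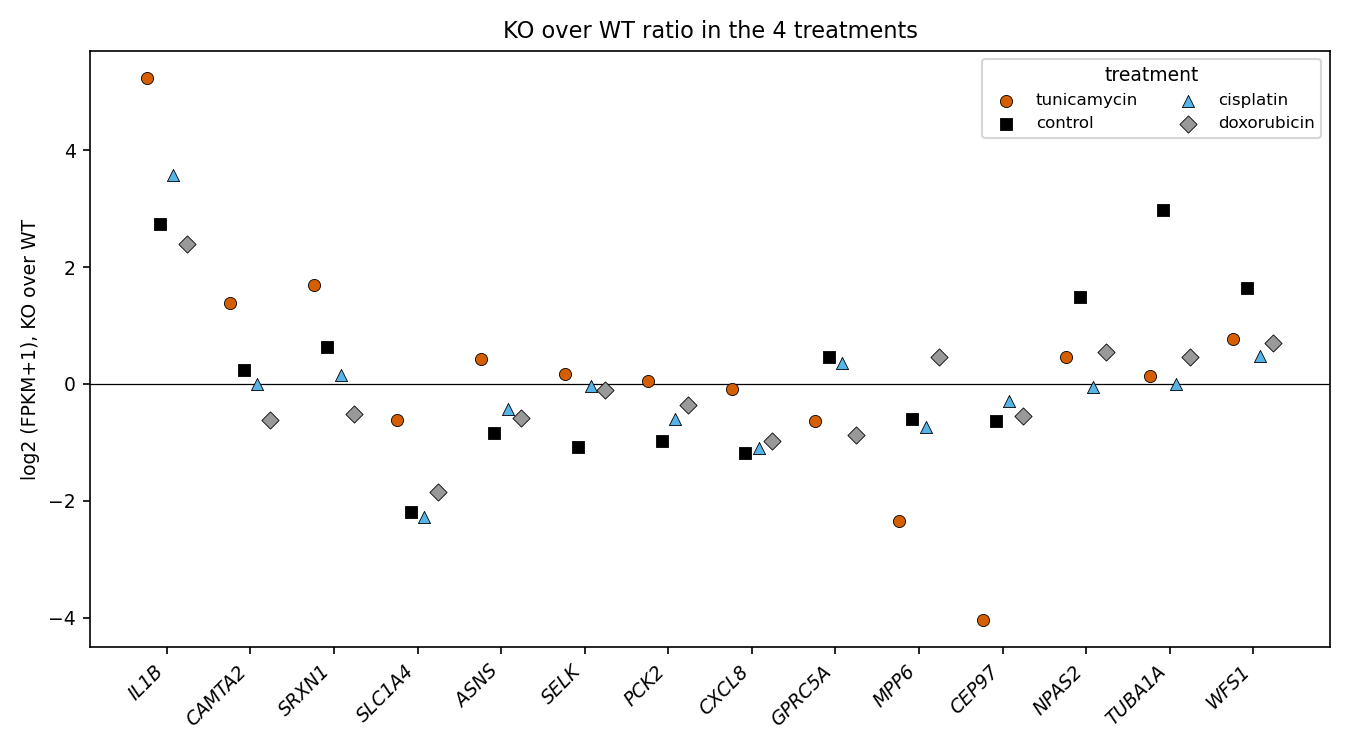
KO over WT log2 ratio (FPKM plus 1) of 14 named genes under tunicamycin, in control, under cisplatin and under doxorubicin, 1 marker per treatment and no error. For IL1B, CAMTA2, SRXN1 and SLC1A4 the tunicamycin marker is at least 1 above the others, for CEP97 and MPP6 it is at least 1 below them, and for NPAS2, TUBA1A and WFS1 the control marker is the highest.

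Calls by the authors' test crossed direction between the 2 tables in a small share of genes. Of 8769 member genes tested in both of the authors' deposited tables, 267 (3.04%) were called higher in KO cells under tunicamycin and lower in control, with a median difference of 0.59. Another 140 (1.6%) were called lower under tunicamycin and higher in control, with a median of -0.57. Same-direction calls were more frequent, with 1748 genes higher and 1310 lower in KO cells in both tables. Of the 267 genes 24 had a difference of 1 or more, 18 of them without WT control alone apart, and of the 140 genes 15 had one of -1 or less, 6 of them without it. The 18 include ASNS, SELK, SEC61G, a subunit of the ER translocation channel, PEG10, an imprinted gene of retrotransposon origin, and SAT1, which acetylates polyamines, of which the last 3 were picked after their values were seen. PEG10 had 45.4 and 59.9 FPKM in KO cells, against 22.95 and 96.0 FPKM in WT cells. The 6 include GPRC5A, an orphan receptor induced by retinoic acid, also picked later, with 84.8 and 147 FPKM in KO cells, against 131 and 106 FPKM in WT cells. Opposite calls are no test of the difference between the tables.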

How the data were processed

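RNA-seq was done on 16 samples, of which the 8 in control and tunicamycin enter the difference. The build hg38 and the tools STAR 2.5.3, Trimmomatic 0.35, FastQC 0.11.5, Cuffdiff and Cufflinks are listed in the submitters' processing notes, without roles, annotation release or strand. The authors deposited 1 table per treatment, each normalized separately, with 1 FPKM value per group for both replicates. Per the file headers, each deposited table also holds the log2 ratio of KO over WT without pseudocount, a test score, and a p-value with its q-value. Library totals and replicate values were not analysed here, so the depth and the replicate error of each value are unknown. Columns were tied to WT and KO through the table names and group codes.

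From these values, responses and differences were computed on log2(FPKM + 1), which understates the change of low genes, with Python 3.11.15, pandas 2.3.3, numpy 2.4.6, scipy 1.17.1 and matplotlib 3.10.9. The calculation was tested on simulated data. A gene was kept with 5 FPKM in 1 group of each table. Calls are the authors' q of at most 0.05. Gene types, transcript lengths and GC content came from GENCODE 29, which matched 57047 of 60658 gene IDs, and gene positions are from GENCODE 29 on GRCh38. GC centring took the median of genes in 20 bins. The gene lists and members were chosen with earlier results of these data known. Genes were named if they were among the 10 highest or lowest with WT control not alone apart (tested by the authors in both tables), among the 5 highest or lowest with it alone apart, the extremes of a list, or a fixed set of stress, clock and cytokine genes. Others are said to be picked later or serve as list examples. Alternatives covered the pseudocount, the level limit, the deposited ratios and the scaling of groups.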

Additional observations from a re-analysis of the deposited data

Results flagged for a closer look

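Among the 10 highest and 10 lowest differences, with genes with WT control alone apart left out, 5 genes had opposite calls in the authors' deposited tables. Among member genes tested in both, 3.04% were called higher under tunicamycin and lower in control, and 1.6% the reverse. Genes picked for a large difference are more likely to have opposite calls, so the count is no separate finding. The difference between the tables itself was not tested. MIR100HG, a host gene of microRNAs, had a difference of 3.69, with 83.5 and 47.1 FPKM in KO cells under tunicamycin and in control, against 23.7 and 181 FPKM in WT cells. RN7SL1, the RNA of the signal recognition particle, had 2.28, with 606 and 102 FPKM in KO cells, against 293 and 241 FPKM in WT cells. A gene of the same RNA family, Metazoa_SRP, had 2.42, with 415 and 91.0 FPKM in KO cells, against 172 and 204 FPKM in WT cells. The transcript RP11-673C5.1 had 1.70, with 21.2 and 21.1 FPKM in KO cells, against 11.2 and 38.7 FPKM in WT cells. The mitochondrial pseudogene MTCO1P12 had -1.46, with 27.5 and 28.03 FPKM in KO cells, against 54.0 and 19.3 FPKM in WT cells. RN7SL1, Metazoa_SRP and MTCO1P12 have near-identical copies, so their reads can be split among genes and the values are uncertain.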

How the results depend on the processing

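No paired analysis was possible because each group has 1 FPKM value for both replicates, and leaving out each replicate was not run for the same reason. The count of genes with a difference of 1 or more (76) was 148 with a limit of 1 FPKM and 43 with groups scaled to the same summed FPKM without mitochondrial mRNAs. The count at -1 or less (106) was 258 with a limit of 1 FPKM, 55 with 10 FPKM and 34 with 5 FPKM in all 4 groups. With alternatives chosen after seeing the data, it was 69 where 2 implied errors were required, 28 without genes where WT control alone stood apart and 51 in protein-coding genes. Where the tunicamycin ratio also had to be 1 apart from the cisplatin and doxorubicin ratios, the counts were 10 and 5. The median difference (0.03) was -0.11 with summed-FPKM scaling, which also took the medians of the ER chaperone list to -0.04, the sensor list to -0.05, the cell death list to -0.04 and the G2/M list to -0.07. With that scaling the hexosamine list was at 0.20, the ERAD and export list at 0.18, the PERK-ATF4 list at 0.05, the NRF2 list at 0.19 and the ribosomal list at 0.14. GC centring turned the direction of the sensor list (-0.07), the G2/M list (-0.08), the NF-kB list (0.02) and the immediate early list (0.03). The cause of these shifts was not tested, beyond the number of genes each limit leaves. The count with WT control alone apart (1513) lay between 1176 and 2138 under all alternatives run. Of 38 named genes, none changed sign with median scaling or a pseudocount of 0.1, and 4 moved by over 1.5 times with that pseudocount, each with a group under 1 FPKM.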
